A study of Mus musculus with 5 samples.

Results

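Efferocytosis is the uptake of dying cells by phagocytes. Phosphatidylserine exposed on the dying cell is seen either directly, by receptors such as the TIM proteins, or through soluble bridging proteins that tie it to a receptor on the phagocyte. Gas6 bridges to the TAM receptor tyrosine kinases Tyro3, Axl and Mertk, and protein S (Pros1) to Tyro3 and Mertk. Mfge8 bridges to integrins, and Lrp1 and Trem2 take up or sense lipoproteins and lipids of cell debris. The 10 genes described here (Mertk, Axl, Tyro3, Gas6, Pros1, Timd4, Havcr2, Mfge8, Trem2 and Lrp1) were chosen by exact symbol from 55291 gene symbols, all 10 were found, and all 10 passed the filter on low counts that left 17062 genes for testing. Tyro3 passed only through its wild-type counts.

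The series holds bulk RNA-seq of mouse bone marrow cells that carry the cell type label of monocytes, with 3 wild-type libraries and 2 libraries of the genotype Tet2 mutant. Libraries are named by the number in their titles, 1, 2 and 3 for the wild type and 2 and 3 for the mutant. Tet2 encodes a DNA demethylation enzyme that is frequently lost in myeloid neoplasms. The Tet2 allele, what drives it, the strain, age and number of the mice, and the way the cells were isolated are not stated in the labels. Nothing in the labels ties a library to a separate animal, so the p-values reflect spread among these libraries alone, which may be technical. Levels are CPM, counts relative to the library size after TMM adjustment on the usual CPM scale, and a gene was called at a Benjamini-Hochberg adjusted p under 0.05 over all tested genes.

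Total counts ran from 53789308 to 72414875 in the wild-type libraries and were 17459808 and 60508381 in mutant libraries 2 and 3. Tet2 ran from 9.77 to 11.9 CPM in the wild type, against 5.31 and 15.6 CPM in mutant libraries 2 and 3, on either side of the wild type (edgeR adjusted p = 0.966). Without mutant library 3 Tet2 was at -1.02 on the log2 scale and passed (adjusted p = 0.0368). A mutation need not lower the transcript. All 9 monocyte markers had counts in every library, and their summed level was 13167 to 14591 CPM in the wild type and 29371 and 19546 CPM in the mutant, most of it Lyz2. Of these 9 markers 2 were called higher (background 10.6%) and none lower. Ly6c2 and F13a1 had negative log2 fold changes (-0.62 and -1.38) without passing, and the other markers had positive ones. Markers of other cells and tissues were present too. Neutrophil markers summed to 46182 to 57843 CPM in the wild type and 52082 and 23051 CPM in the mutant, above the monocyte sum in every library. Erythroid markers summed to 4801 to 13024.5 CPM in the wild type and 11815 and 1807 CPM in the mutant. Some markers set the mutant libraries apart: 9 pancreatic acinar markers summed to 2.22 to 3.34 CPM in the wild type against 505 and 1439 CPM. Of 4 markers of lymphoid organ stroma, the B cell chemokine Cxcl13 stood at 0.524 to 0.630 CPM in the wild type against 324 and 154 CPM and made up nearly all of their sum in the mutant, Ccl19 reached 3.96 CPM at most, Ccl21a had no count in any library and Madcam1 had none in either mutant library and 0.0816 CPM at most in the wild type. Their part in the results was not tested. The 2 mutant libraries also differed from each other in many of the values below, and mutant library 2 was the shallowest library.

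The 2 largest rises belonged to Havcr2 and Timd4, which lie in 1 cluster of TIM genes on chromosome 11. Their upstream sequences are shown because both genes rose and they lie 329544 bases apart, both on the plus strand. Each sequence gives the 250 bases before the RefSeq start (GRCm38.p6), at chr11:46454681-46454930 for Havcr2 and chr11:46810549-46810798 for Timd4. Capitals mark the letters of a PU.1 type ETS motif.
Havcr2: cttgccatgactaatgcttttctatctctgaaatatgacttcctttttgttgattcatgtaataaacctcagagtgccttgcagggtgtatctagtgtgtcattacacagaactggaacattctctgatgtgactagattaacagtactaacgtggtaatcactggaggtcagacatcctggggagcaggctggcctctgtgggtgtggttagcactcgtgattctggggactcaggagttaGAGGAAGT
Timd4: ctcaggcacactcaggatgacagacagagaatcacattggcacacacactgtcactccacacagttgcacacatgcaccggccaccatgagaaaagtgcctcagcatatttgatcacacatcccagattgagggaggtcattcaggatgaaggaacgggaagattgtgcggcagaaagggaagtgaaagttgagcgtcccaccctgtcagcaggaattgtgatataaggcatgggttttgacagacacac

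Motifs were searched on both strands of this window in all 10 genes and in 32851 promoters, with GAGGAAGT as the PU.1 type ETS site, TTCNNNGAA as a STAT site and CACGTG as an E-box, and with an interferon stimulated response element and an LXR element by name. PU.1 is the transcription factor that myeloid cells depend on. Havcr2 held GAGGAAGT directly before its start, at bases -8 to -1, as 2.44% of promoters did somewhere in the window. The STAT letters occurred in Pros1 at bases -92 to -84 and in Lrp1 at bases -232 to -224, against 7.02% of promoters. The motifs were found in 3 of the 10 windows, and no member held the interferon response element (2.98% of promoters), the E-box (6.02%) or the LXR element (0.0152%). A match describes letters in this window only.

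Of the 10 genes, 5 rose in the Tet2 mutant, none was called lower and 5 did not pass. Havcr2, Timd4, Mertk, Axl and Lrp1 were the risen genes, and for each of them both mutant libraries lay above all wild-type ones. The background over all tested genes was 10.6% called higher, 4.43% called lower and 15.0% called in either direction by edgeR's quasi-likelihood test. The 10 genes were chosen with earlier results of these data known, so setting them beside the background is a description and no test. Gas6 and Tyro3 lay below every wild-type library without passing, an order found in 33.3% of tested genes, while 22.9% of tested genes lay above in both mutant libraries. With the same test 2 members, Gas6 and Tyro3, were lower at an unadjusted p under 0.05, and DESeq2 called 1 lower, Gas6. Over all 17062 tested genes 3182 were lower at that p, and DESeq2 called 2137 lower. The median log2 fold change of the 10 genes was 0.89, against -0.07 over all tested genes. The first of these lies midway between Pros1 and Lrp1, and without Tyro3, whose fitted value rests on 1 mutant count, the median of the remaining 9 genes was 1.58. In bulk RNA a change in the number of cells of a type and a change in RNA per cell cannot be told apart.

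**Figure D1:**
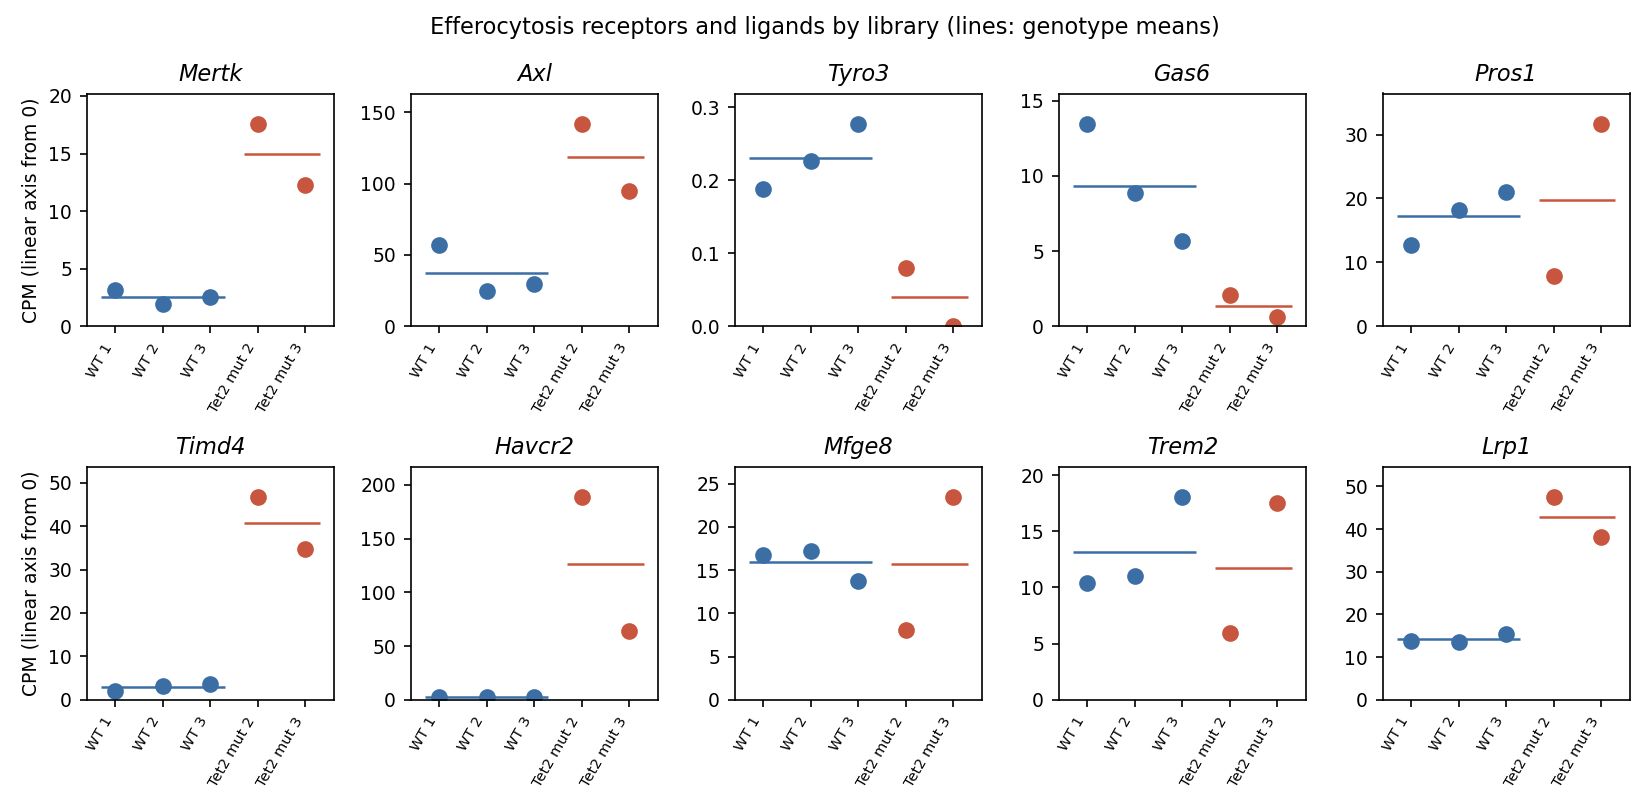
CPM of each of the 10 genes in the 3 wild-type (blue, WT) and 2 Tet2-mutant (red, Tet2 mut) libraries, on linear axes that start at 0, with lines at the genotype means. Both red points lie above all blue points for Mertk, Axl, Timd4, Havcr2 and Lrp1 and below them for Tyro3 and Gas6, and the red points fall apart for Pros1, Mfge8 and Trem2.

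TIM receptors bind phosphatidylserine with their immunoglobulin domain. Havcr2, which encodes TIM-3, an inhibitory receptor of T cells that is also present on dendritic cells and monocytes, lies on chromosome 11 from 46454935 to 46481255 in GRCm38. Havcr2 had 2.67, 2.24 and 2.63 CPM in wild-type libraries 1, 2 and 3, while mutant libraries 2 and 3 had 188 and 64.2 CPM. The wild-type libraries lay close together and far below both mutant libraries. The rise was 50.3-fold, from 2.51 ± 0.235 to 126 ± 87.8 CPM (SD, n = 3 and 2), with a log2 fold change of 5.65 ± 0.51 (SE; adjusted p = 0.00156). Within the mutant pair it was 2.93-fold higher in library 2 than in library 3.

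Timd4 encodes TIM-4, a tethering receptor typical of resident macrophages, and lies on chromosome 11 from 46810800 to 46844332. It had 2.12, 3.28 and 3.72 CPM in wild-type libraries 1, 2 and 3, while mutant libraries 2 and 3 had 46.6 and 34.7 CPM. Both mutant libraries were again far above the wild type, and they were closer to each other than for Havcr2. The rise was 13.4-fold, from 3.04 ± 0.828 to 40.7 ± 8.45 CPM (SD, n = 3 and 2), with a log2 fold change of 3.74 ± 0.44 (SE; adjusted p = 0.00394). Havcr2 and Timd4 were the 2 members that passed in every one of the 12 alternative fits, with log2 fold changes of 4.68 to 6.22 and 3.21 to 4.05.

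Of 13 annotated genes from the start of Havcr2 to the end of Timd4, 5 were tested and these 2 were the ones called by edgeR's test with all libraries. Because these 2 genes set the interval, only the tested genes between them add information, and none of those was called. The other family members in the interval, Havcr1 (TIM-1) and Timd2 (TIM-2), did not pass that test. Havcr1 had 1.29, 2.03 and 2.02 CPM in the wild type, against 1.03 and 2.16 CPM in the mutant (log2 fold change -0.14, adjusted p = 0.902). Timd2 was low at 0.121, 0.131 and 0.343 CPM in the wild type, while mutant libraries 2 and 3 had 0.238 and 5.81 CPM (adjusted p = 0.0712), so its higher mean came from 1 library. Timd2 passed by DESeq2 (adjusted p = 0.00584), with no filter on low counts (adjusted p = 0.00702) and without mutant library 2 (adjusted p = 0.00114). The remaining tested symbol, Gm12174, had a log2 fold change of -0.60 (adjusted p = 0.591).

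TAM receptors are tyrosine kinases that drive engulfment and dampen cytokine signalling. Mertk, the TAM receptor most tied to efferocytosis by macrophages, lies on chromosome 2 from 128698956 to 128802894. Mertk had 3.12, 1.95 and 2.53 CPM in wild-type libraries 1, 2 and 3, while mutant libraries 2 and 3 had 17.6 and 12.3 CPM. The genotypes did not overlap, and the lower mutant library was well above the highest wild-type one. The rise was 5.89-fold, from 2.53 ± 0.584 to 14.9 ± 3.75 CPM (SD, n = 3 and 2), with a log2 fold change of 2.56 ± 0.55 (SE; adjusted p = 0.0301). Without wild-type libraries 1, 2 and 3 in turn the estimate stayed at 2.54 to 2.86 and the call was lost (adjusted p = 0.101, 0.131 and 0.117).

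Axl, a TAM receptor with high affinity for Gas6 that dendritic cells and macrophages raise on inflammatory stimulation, lies on chromosome 7 from 25757273 to 25788705. It had 57.1, 25.0 and 29.7 CPM in wild-type libraries 1, 2 and 3, while mutant libraries 2 and 3 had 142 and 95.1 CPM. Wild-type library 1 was the high one of its group but still below both mutant libraries. The rise was 3.18-fold (37.3 ± 17.3 to 118 ± 33.0 CPM, SD, n = 3 and 2; log2 change 1.67 ± 0.41 SE, adjusted p = 0.0407). Axl passed without wild-type library 1 (adjusted p = 0.024) and not without wild-type library 2 (adjusted p = 0.0678) or 3 (adjusted p = 0.0736).

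Tyro3, the TAM receptor best known from the nervous system, lies on chromosome 2 from 119797733 to 119818104 and was barely measured. Its counts were 14, 19 and 17 in the wild type and 1 and 0 in mutant libraries 2 and 3, or 0.188, 0.226 and 0.277 CPM against 0.0792 and 0 CPM. A level of 3 counts corresponds to 0.238 CPM in mutant library 2 and 0.0553 CPM in mutant library 3, so a wild-type level would have been near the limit in the first library and above it in the second. The difference did not pass edgeR's test (adjusted p = 0.0986).

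Mertk and Axl rose while Axl remained the main TAM transcript in every library. Per kilobase of exon, Axl made up 93.8%, 91.1% and 90.4% of the summed TAM receptor level in wild-type libraries 1, 2 and 3 and 87.4% and 87.0% in mutant libraries 2 and 3. The share of Mertk was 5.95%, 8.25% and 8.93% in the wild type and 12.6% and 13.02% in the mutant. These shares do not depend on the scaling of libraries, and those of the genotypes did not overlap. The difference of means was 5.09 percentage points (two-sided exact permutation test over libraries, p = 0.1, the smallest p that 10 arrangements allow).

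**Figure D2:**
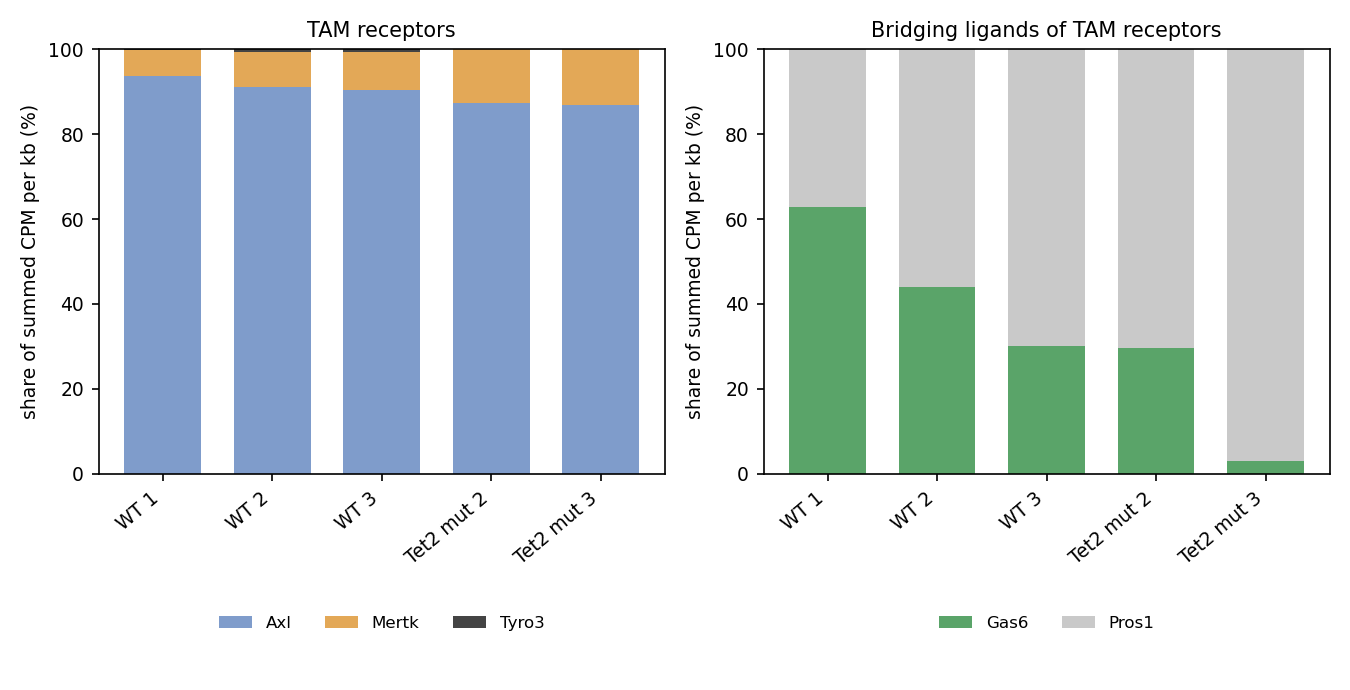
Stacked bars give, for each library, the share of each gene in the summed CPM per kilobase of the 3 TAM receptors (left) and of Gas6 and Pros1 (right). Axl fills most of every bar on the left, with a larger Mertk part in the mutant, and Gas6 makes up 2.90% of the ligand bar in mutant library 3.

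Neither of the TAM ligands passed the test. Gas6, a vitamin K-dependent protein that binds all TAM receptors, lies on chromosome 8 from 13465374 to 13494490. Gas6 had 13.5, 8.84 and 5.66 CPM in wild-type libraries 1, 2 and 3, while mutant libraries 2 and 3 had 2.06 and 0.590 CPM, from 26 and 32 mutant counts. Every mutant value was below every wild-type value, and both groups were widely spread. The means were 9.32 ± 3.92 and 1.32 ± 1.04 CPM (SD, n = 3 and 2), with a log2 fold change of -2.86 ± 0.85 (SE; adjusted p = 0.0601). The estimate ran from -3.98 to -2.18 over the 12 alternatives and passed in 6 of them, among them DESeq2 (adjusted p = 0.000702), upper-quartile scaling (adjusted p = 0.0385) and the fits without mutant library 2 (adjusted p = 0.00328) or 3 (adjusted p = 0.0282).

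Stromal cells of the marrow are a known source of Gas6, and the summed stromal markers put the libraries in the same order. The 8 marrow stroma markers summed to 101, 62.7 and 56.9 CPM in wild-type libraries 1, 2 and 3 and to 22.6 and 2.05 CPM in mutant libraries 2 and 3. Most of that sum was Cxcl12, the chemokine that holds stem cells in the marrow. Of the 8 markers 1 was called lower (background 4.43%), Pdgfrb (adjusted p = 0.0466, and 0.133 to 0.146 without any 1 wild-type library). Pdgfrb stood at 0.158 and 0.0553 CPM in mutant libraries 2 and 3, from 3 counts or fewer. It passed the filter on low counts only through its wild-type counts. The list median was -2.62 on the log2 scale and includes genes at or near 0 in the mutant. Col3a1 had no count in either mutant library and Pdgfra none in mutant library 3. The part of stromal RNA in the Gas6 difference was not tested.

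**Figure D3:**
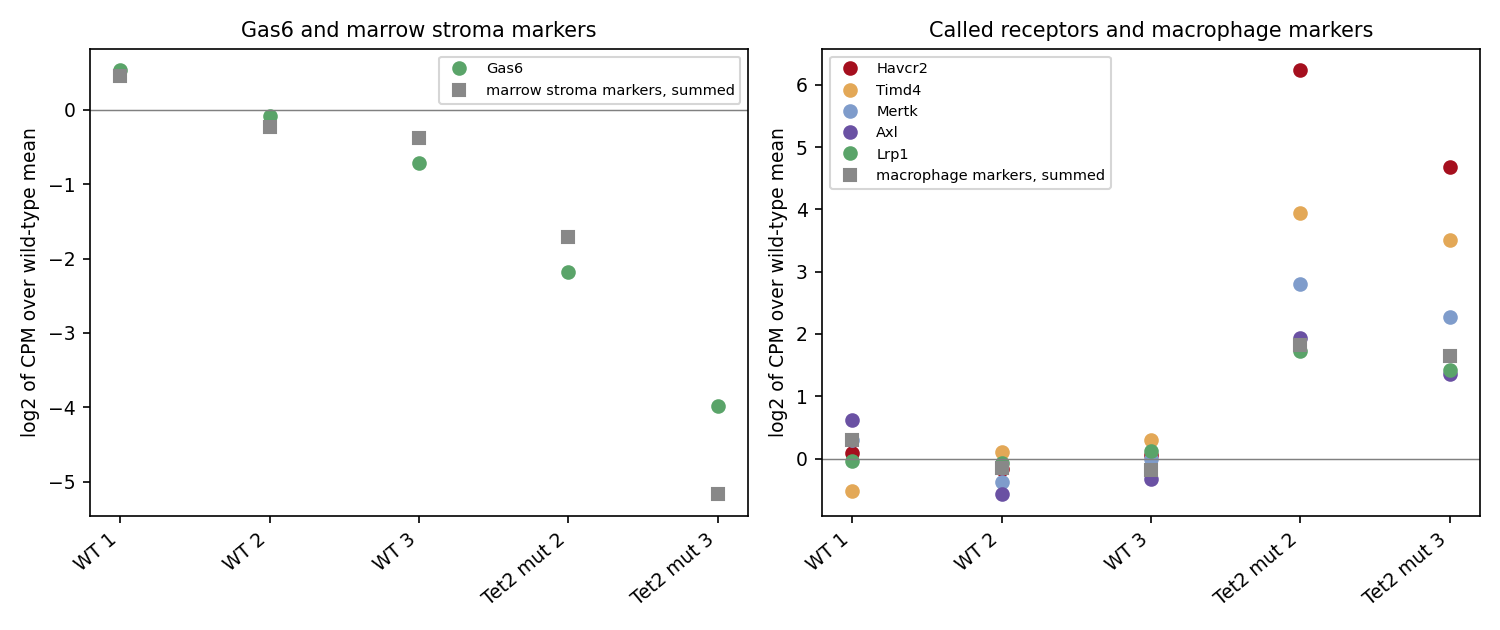
Points give log2 of CPM over the wild-type mean in each library, for Gas6 beside the summed marrow stroma markers (left) and for the 5 called receptors beside the summed macrophage markers (right). Gas6 and the stroma sum lie in the same library order from 13.5 and 101 CPM down to 0.590 and 2.05 CPM, and all 5 receptors lie above 0 in both mutant libraries together with the macrophage sum.

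Pros1, the other TAM ligand and also an anticoagulant cofactor, lies on chromosome 16 from 62854307 to 62929346. Pros1 had 12.8, 18.1 and 21.1 CPM in wild-type libraries 1, 2 and 3, while mutant libraries 2 and 3 had 7.84 and 31.7 CPM. The mutant libraries fell on either side of the whole wild-type range, 4.04-fold apart. The log2 fold change was 0.20 ± 0.60 (SE; adjusted p = 0.825), and it was 0.87 without mutant library 2 (adjusted p = 0.0474) and -1.15 without library 3 (adjusted p = 0.0495). Per kilobase, Gas6 made up 62.9%, 43.9% and 30.1% of the 2 ligands in the wild type and 29.6% and 2.90% in the mutant, so the shares of wild-type library 3 and mutant library 2 nearly met.

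Mfge8, which links phosphatidylserine to the integrins alpha-v beta-3 and alpha-v beta-5, lies on chromosome 7 from 79133768 to 79149060. It had 16.7, 17.2 and 13.8 CPM in wild-type libraries 1, 2 and 3, while mutant libraries 2 and 3 had 8.08 and 23.4 CPM. As with Pros1, the wild type lay between the mutant libraries, which were 2.90-fold apart. The log2 fold change was -0.01 ± 0.53 (SE; adjusted p = 0.99), but without mutant library 3 it was -0.98 and passed (adjusted p = 0.0366). Among its integrin partners Itgb5 rose, from 11.4 to 15.5 CPM in the wild type to 161 and 43.5 CPM in mutant libraries 2 and 3 (log2 fold change 2.93 ± 0.53 SE, adjusted p = 0.0172). It did not pass without wild-type library 1 (adjusted p = 0.0594). Itgav had a log2 fold change of 1.38 (adjusted p = 0.0631) and Itgb3 one of -1.51 (adjusted p = 0.0739), and neither passed edgeR's test with all libraries. DESeq2 called both (adjusted p of 0.00396 and 0.00508), and Itgb3 also passed with upper-quartile scaling (adjusted p = 0.0464) and with total counts (adjusted p = 0.0322). Both passed without either mutant library (adjusted p of 0.0163 and 0.0135 without library 2 and of 0.0152 and 0.0335 without library 3, for Itgav and Itgb3 in turn). These integrin genes were named for their pairing with Mfge8 after their values were seen.

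Trem2, a receptor of macrophages and microglia for lipids and apolipoproteins, lies on chromosome 17 from 48346401 to 48354147. Trem2 had 10.4, 11.01 and 18.0 CPM in wild-type libraries 1, 2 and 3, while mutant libraries 2 and 3 had 5.94 and 17.5 CPM. Mutant library 2 was the lowest library and library 3 fell inside the wild-type range, 2.95-fold higher. The log2 fold change was -0.16 ± 0.59 (SE; adjusted p = 0.856), with a 95% counting interval in mutant library 2 of 4.67 to 7.44 CPM from 75 counts. Tyrobp, the adaptor through which Trem2 signals together with many other myeloid receptors, rose from 325 to 385 CPM in the wild type to 1163 and 632 CPM in the mutant (log2 fold change 1.33 ± 0.31 SE, adjusted p = 0.0359). Tyrobp did not pass without wild-type library 1 or 3 (adjusted p of 0.0663 and 0.059), nor with total counts and no scaling factor (log2 fold change 0.77, adjusted p = 0.0583). A difference between Tyrobp and Trem2 was not tested.

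Lrp1, a large endocytic receptor that takes up lipoproteins and, with calreticulin, apoptotic cells, lies on chromosome 10 from 127538161 to 127621148. It had 13.9, 13.6 and 15.5 CPM in wild-type libraries 1, 2 and 3, while mutant libraries 2 and 3 had 47.4 and 38.2 CPM. Both groups were tight and did not overlap. The rise was 2.99-fold, from 14.3 ± 1.04 to 42.8 ± 6.53 CPM (SD, n = 3 and 2), with a log2 fold change of 1.58 ± 0.32 (SE; adjusted p = 0.0262). The estimate was 1.69 to 1.78 without each wild-type library in turn, and the call was lost each time (adjusted p = 0.0824, 0.085 and 0.0774).

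**Figure D4:**
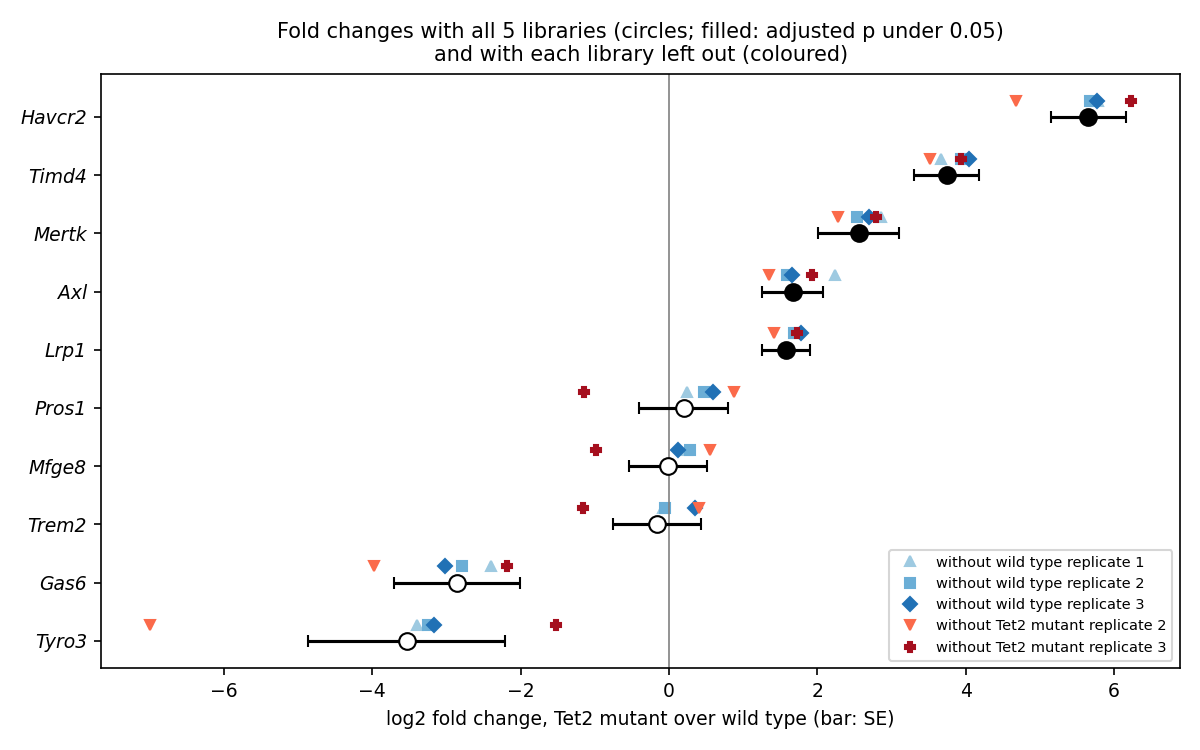
Circles give the log2 fold change of each gene with all 5 libraries (filled where the adjusted p was under 0.05, bars are SE), and coloured symbols above them the value with 1 library left out. The 5 filled circles, from Lrp1 at 1.58 to Havcr2 at 5.65, stay right of 0 with any library left out, while Pros1, Mfge8 and Trem2 lie on both sides of 0.

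The count of 5 risen members moved with single wild-type libraries. It was 3 without wild-type library 1 and 2 without library 2 or 3, fits in which the calls over all genes also fell, from 2556 to between 622 and 888. Without mutant library 2 it was 6, and without library 3 it was 5, with the lone mutant library assumed to vary like the wild type. The same mutant library was the higher one for all 5 risen members: Mertk, Axl, Timd4, Havcr2 and Lrp1 were each higher in library 2, by 1.24-fold to 2.93-fold. Of all 1801 genes called higher, 59.8% were likewise higher in library 2, and of all tested genes 55.2%. In shares of total counts without TMM factors the excess of library 2 was 1.16-fold for Mertk, 1.204-fold for Axl, 1.09-fold for Timd4 and 2.37-fold for Havcr2, and the 2 libraries were level for Lrp1 (1.003-fold). On that scale 45.0% of the genes called higher and 48.1% of all tested genes were higher in library 2. Pros1, Mfge8 and Trem2 were each higher in library 3, by 2.90-fold to 4.04-fold.

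Divided by exon length, the order of the 10 genes changed between the genotypes. In the wild type Axl led in every library, with a mean of 7.41 ± 3.44 CPM per kilobase (SD, n = 3), followed by Pros1 at 4.24 ± 1.03, Gas6 at 3.66 ± 1.54, Mfge8 at 3.39 ± 0.395 and Trem2 at 2.66 ± 0.856. Neighbours among these 5 differed by less than the larger of their SDs. Below them came Timd4 at 1.40 ± 0.381, Havcr2 at 0.923 ± 0.0865, Lrp1 at 0.808 ± 0.0587 and Mertk at 0.585 ± 0.135 CPM per kilobase, with Tyro3 last at 0.0372 ± 0.00727. In both mutant libraries the order began with Havcr2, Axl and Timd4, at means of 46.4 ± 32.3, 23.5 ± 6.56 and 18.7 ± 3.89 CPM per kilobase (SD, n = 2). Pros1, Mertk, Mfge8, Lrp1 and Trem2 followed at means of 4.83 to 2.37 CPM per kilobase. Neighbours among Havcr2, Axl and Timd4, and among the 5 genes after them, differed by less than the larger SD. Gas6 and Tyro3 were last at 0.520 ± 0.407 and 0.00639 ± 0.00903.

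Resident macrophages carry Mertk, Axl, Timd4 and Lrp1, and also Trem2, which did not rise (log2 fold change -0.16, edgeR adjusted p = 0.856). Most markers of these cells rose, as Mertk, Axl, Timd4 and Lrp1 did. Of 12 such markers 8 rose, against 10.6% of all tested genes, and the list's median on the log2 scale was 1.66. Their summed level was 884, 651 and 633 CPM in wild-type libraries 1, 2 and 3 and 2562 and 2266 CPM in mutant libraries 2 and 3. Cd68, a lysosomal protein of macrophages, went from 85.3 ± 4.38 to 1025 ± 157 CPM (SD, n = 3 and 2), while the iron exporter gene Slc40a1 did not pass at 372 ± 100.5 and 400.2 ± 80.9 CPM. Siglec1, a defining marker of marrow macrophages, was at 0.555 to 1.11 CPM in the wild type, at 3 counts or fewer in both mutant libraries and at 0 in mutant library 3. Cd163 also had a lower mean in the mutant without passing (9.08 ± 6.98 and 5.09 ± 2.16 CPM, SD, n = 3 and 2). Conventional dendritic cell markers, whose cells carry Havcr2 and Axl, rose in 4 of 8 cases (background 10.6%), with sums of 79.5 to 95.5 CPM in the wild type and 739 and 779 CPM in the mutant. The largest part in the mutant was Cd209a, at 256 and 529 CPM in libraries 2 and 3. Clec9a stood at 0.633 CPM in mutant library 2, inside its wild-type range. T and NK cell markers, another known source of Havcr2, summed to 223 to 258 CPM and to 970.0 and 882 CPM, with 3 of 7 called higher. In mutant library 2 Cd4 and Ncr1 lay below the wild type and Cd8a inside its range. The part of these cells in the receptor rises was not tested.

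By root mean square difference of centred log2 CPM over the 5 libraries, the genes most like Mertk were Nfatc2 (0.12), Adgrg5 (0.14) and P2ry10 (0.14). Nfatc2, a calcium-regulated transcription factor of lymphocytes, ran from 2.23 to 3.58 CPM in the wild type, against 25.2 and 15.1 CPM in mutant libraries 2 and 3. Among the 10 genes Axl (0.45) and Lrp1 (0.52) were nearest to Mertk and Gas6 (2.74) was farthest. Among all tested genes Axl ranked only 308 and Lrp1 472 by likeness to Mertk.

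Of the other genes of apoptotic cell uptake, 113 of 114 listed in 7 lists were found and 111 were tested. They rose in 21 cases (18.9%, against 10.6% of all tested genes), fell in 2 (1.8%, against 4.43%) and did not pass in 88. Their median log2 fold change was 0.49, against -0.07 over all tested genes. The lists were chosen with earlier results of these data known, so these shares and medians describe the lists and test nothing. Among engulfment receptors and opsonins outside the 10 genes, 6 of 21 rose (28.6%) and 1 fell (median 0.70). The complement genes C1qa, C1qb and C1qc, whose product coats dying cells, rose by 3.94 to 4.69 on the log2 scale (largest adjusted p = 0.000826 of the 3). Itgam, the alpha chain of complement receptor 3, was the gene that fell, and it was named after its value was seen (log2 fold change -1.38 ± 0.34 SE, adjusted p = 0.0408).

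Of the signals by which dying cells attract and present themselves, 4 of 14 genes rose (28.6%, background 10.6%) and none was called lower (background 4.43%). The list median was 0.11, with 3 genes lower at an unadjusted p under 0.05 and 3 called lower by DESeq2. Over all 17062 tested genes, 3503 were higher and 3182 lower at that unadjusted p, and DESeq2 called 2972 higher and 2137 lower. P2ry12, a receptor for ADP, ran from 2.38 to 3.35 CPM in the wild type, against 64.1 and 23.7 CPM in mutant libraries 2 and 3 (log2 fold change 3.95 ± 0.52 SE, adjusted p = 0.00609). Gpr132, a receptor linked to lysophosphatidylcholine released by dying cells, rose by 3.47 ± 0.50 (adjusted p = 0.00839), and Panx1, a channel that releases ATP from dying cells, by 1.98 ± 0.35 (adjusted p = 0.0164) on the log2 scale, Panx1 not passing without wild-type library 1 (adjusted p = 0.0504). None of the 8 do-not-eat-me genes passed edgeR's test, which called 15.0% of all tested genes in either direction. Beside the all-gene counts just given, 4 of these 8 genes were higher and 2 lower at an unadjusted p under 0.05, and DESeq2 called 3 higher. Siglecg, an inhibitory lectin that binds Cd24, had the smallest p of them (adjusted p = 0.0551). It passed in 4 of the 12 alternatives, among them DESeq2 (adjusted p = 0.0122), no filter on low counts (8.1e-06) and the replicate block (0.000963). The log2 fold change of Siglecg was 2.72 without mutant library 2 and 0.90 without library 3. Its level was 125 and 442 CPM in mutant libraries 2 and 3, where the 7 B cell markers, from cells that carry Siglecg, summed to 906 and 7008 CPM, and their part was not tested.

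Of 18 receptor partners and adaptors 3 rose (16.7%) and none was called lower, with 2 lower at an unadjusted p under 0.05 and 1 by DESeq2 (median 0.31). Besides Tyrobp these were Socs1 and Socs3, suppressors of cytokine signalling that TAM receptors are known to induce and that cytokines induce as well. Socs1 ran from 9.02 to 12.1 CPM in the wild type, against 145 and 45.9 CPM in mutant libraries 2 and 3 (adjusted p = 0.0114), a log2 fold change of 3.12 ± 0.49 (SE). Socs3 rose by 2.45 ± 0.41 on the same scale (adjusted p = 0.0141). Of 16 cytoskeletal genes of engulfment none was called higher (background 10.6%) and 1 was called lower (background 4.43%). Crkl, an adaptor of engulfment signalling, fell from 42.1 ± 6.69 to 16.9 ± 4.70 CPM (SD, n = 3 and 2), with a log2 fold change of -1.32 ± 0.36 (SE; adjusted p = 0.0493, and 0.0515 with RLE scaling). At an unadjusted p under 0.05, 4 of these genes were higher, and DESeq2 called 2 higher. For comparison with this list and the adaptors, 3503 of all 17062 tested genes were higher and 3182 lower at that p. DESeq2 called 2972 of all tested genes higher and 2137 lower.

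In LC3-associated phagocytosis and phagosome maturation 3 of 21 rose (14.3%, near the background of 10.6%) and none was called lower, with 2 lower at an unadjusted p under 0.05 and 1 by DESeq2 (median 0.52). They were Slc37a2, a sugar phosphate transporter of macrophages (log2 fold change 2.28 ± 0.33 SE, adjusted p = 0.00867), the NADPH oxidase subunit Cyba (1.51 ± 0.26, adjusted p = 0.0152) and Map1lc3b, which encodes LC3 itself (1.06 ± 0.27, adjusted p = 0.0423, and 0.0671 to 0.0725 without any 1 wild-type library). With total counts and no scaling factor Map1lc3b was at 0.51 (adjusted p = 0.105). In lipid handling 5 of 13 rose (38.5%) and none was called lower, with 0 lower at an unadjusted p under 0.05 and 1 by DESeq2 (median 0.92). Beside both lists, 3182 of all 17062 tested genes were lower at that unadjusted p and 2137 by DESeq2. Nr1h3, which encodes the oxysterol receptor LXR alpha, ran from 4.67 to 7.15 CPM in the wild type, against 76.8 and 126 CPM in mutant libraries 2 and 3 (log2 fold change 4.09 ± 0.37 SE, adjusted p = 0.00156). The cholesterol exporter Abcg1 rose by 3.60 ± 0.34 (adjusted p = 0.00178) and the lipid carrier Apoe by 3.62 ± 0.29 (adjusted p = 0.00108) on the log2 scale. The number of risen genes over the 7 lists was 16 to 17 without each wild-type library in turn and 36 or 39 with 1 mutant library left out, and neither of the 2 falls passed once any 1 wild-type library was left out.

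**Figure D5:**
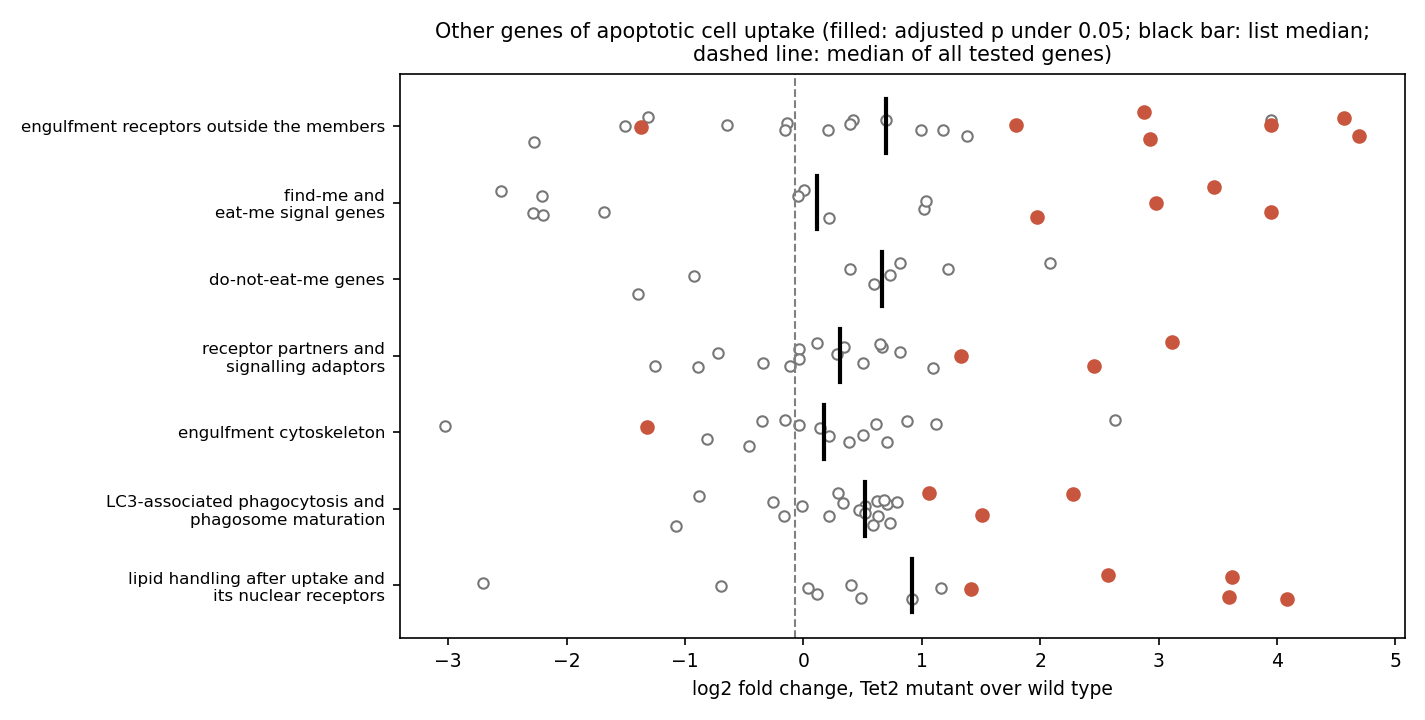
Each point is 1 tested gene of the 7 lists, placed by its log2 fold change of Tet2 mutant over wild type (filled where the adjusted p was under 0.05), with a black bar at each list's median and a dashed line at the median of all tested genes, -0.07. Filled points lie mostly right of 0, with Itgam at -1.38 and Crkl at -1.32 on the left.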

How the data were processed

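The authors deposited 1 table of raw gene counts per library, with 55291 symbols. Trimmomatic, STAR and the build mm10 are named in the submitters' processing notes, with no versions, and the counter, annotation and strand setting are not stated there. No molecular identifiers are named, so intervals cover counting error only. Without strand, a gene and its antisense partner cannot be told apart: genes overlapping Mertk, Gas6 and Lrp1 had at most 3 counts in a library.

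Counts were filtered with filterByExpr (17062 genes), scaled by TMM (factors 0.723 to 1.17) and compared by edgeR's quasi-likelihood test (edgeR 4.0.16, R 4.3.3) over all 5 libraries without the replicate number, with Benjamini-Hochberg adjustment. CPM use TMM-adjusted library sizes, SE is the absolute log2 fold change over the square root of F, and intervals are exact Poisson. Positions and exon lengths are from GENCODE M21, promoters from RefSeq (GRCm38.p6, 10 of 10 members matched by symbol). The last bases of the RefSeq sequence, after the start, were found in a GENCODE transcript for every member except Mertk and Gas6. The Tyro3 window lies inside its GENCODE gene. The fit was tested on simulated data for genes with a mean above 1 CPM, with the same spread in both genotypes. That test says nothing on genes as low as Tyro3 or on a spread that differs between genotypes. Alternatives used DESeq2 1.42.0, other scaling and filters, the replicate block, and each library left out. Members and lists were chosen with earlier results of these data known. Named genes were the members, Tet2, up to 3 called genes per list with the smallest p (1 where none passed), the 3 genes nearest Mertk (log2 CPM, prior count 2) and the leading or absent markers. Others (Itgb5, Itgav, Itgb3, Itgam, Havcr1, Timd2, Gm12174, Pdgfrb) were chosen after their values were seen.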

Additional observations from a re-analysis of the deposited data

How the results depend on the processing

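Over the 12 alternatives the 5 risen receptors kept their direction. Upper-quartile scaling moved the median of all genes by -0.27 and total counts without a factor by -0.50 on the log2 scale, with 43.6% and 29.1% of calls higher against 70.5%. Without a factor 3 members rose, with Axl at 1.12 (adjusted p = 0.0683) and Lrp1 at 1.05 (adjusted p = 0.0522) not passing. One member, Gas6, was called lower by DESeq2, upper-quartile scaling, total counts and no filter (1 each). Calls over all genes were 5109 by DESeq2, 4058 with total counts and 4557 with no filter. Pathway genes called lower were 10 by DESeq2, 10 with upper-quartile scaling, 1 with RLE scaling, 15 with total counts and 8 with no filter. With 1 library left out, calls were 622 to 10862, members higher 2 to 6, members lower 0 to 3, pathway genes higher 16 to 39 and lower 0 to 21, and the Mertk share difference was 4.21 to 5.70 percentage points. Direction turned for Mfge8 (0.033 by DESeq2 and 0.032 by RLE scaling, -0.98 to 0.56 with 1 library left out), Pros1 (-0.22 with total counts, -1.15 to 0.87), Trem2 (-1.15 to 0.41), Havcr1 (-0.79 to 0.28), Slc40a1 (-0.20 with upper-quartile scaling, -0.43 with total counts, -0.12 to 0.48) and Tet2 (0.0094 by DESeq2, 0.0049 by RLE scaling, -1.02 to 0.53). The cause was not tested. Replicate numbers 2 and 3 are shared between genotypes only as numbers (correlation of deviations -0.03 and -0.02). With the replicate block 984 genes, 3 members (Axl, Havcr2 and Timd4) and 1 lower pathway gene were called, Pros1 was at -0.30, and Tyrobp (adjusted p = 0.054), Map1lc3b (0.191), Crkl (0.42), Itgam (0.251) and Pdgfrb (0.497) did not pass. The 17459808 counts of mutant library 2 limit genes near 0.238 CPM, such as Tyro3.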
